A study of Mus musculus with 4 samples.

Results

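Cartilage spots were the spots of 2 Visium sections that carried the most cartilage transcripts 7 days after burn/tenotomy (BT). Visium counts transcripts, as unique molecular identifiers (UMIs), in barcoded spots under a tissue section, and each spot covers several cells or parts of cells. Sections A1 and B1 came from the injury site of 10-week-old wild-type C57BL/6 male mice, and the same BT injury applied to every spot compared here. The labels name the tissue as tendon and do not say whether the 2 sections came from separate mice, so that the spread between sections may be technical, and no uninjured section was analysed here. Among spots with at least 200 UMIs, the members were chosen by measured values, as the top 4% of each section by the share of UMIs in Col2a1, Col9a1, Col9a3 and Hapln1. This gave 249 cartilage spots, 125 of 3119 in A1 and 124 of 3088 in B1, out of 6750 spots over tissue in all. They were compared with the 2994 and 2964 remaining spots of the same sections.

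Cartilage is made by chondrocytes, which surround themselves with fibrils of type II, IX and XI collagen that hold aggrecan, a large proteoglycan bound to hyaluronan with the help of link protein. The transcription factor SOX9 drives this programme together with SOX5 and SOX6. In growing cartilage, Indian hedgehog from prehypertrophic cells and parathyroid hormone-related protein set the pace at which chondrocytes enlarge and give way to bone. Heterotopic bone can form by the same endochondral route, while the joints and bones at the site carry cartilage of their own.

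The 4 choosing genes encode the α1 chain of type II collagen (Col2a1), 2 chains of type IX collagen (Col9a1 and Col9a3) and link protein (Hapln1), and their values are a description because they selected the spots. Their joint share was 2.03 to 26.0% of a spot's UMIs in the members of A1 (median 2.94%) and 1.37 to 22.5% in those of B1 (median 2.25%), against medians of 0.262% and 0.156% in the remaining spots. The members just inside the limit had 8 of 395 UMIs in A1 and 8 of 586 in B1, and the spots just outside had 27 of 1335 and 10 of 741. Over the summed spots the share was 5.65% in A1 and 5.99% in B1, against 0.304% and 0.214% in the remaining spots. Members therefore ranged from spots filled with these transcripts to spots with a handful of them. Shares of at least 10% occurred in 12 spots of A1 and 19 spots of B1, which held 44.8% and 63.5% of the members' UMIs of these genes.

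Col2a1 supplied most of the signal, with 4642 UMIs (81.6% of the 4 genes) in the members of A1 and 4677 (85.6%) in those of B1. Col9a1 followed with 801 and 579 UMIs, Col9a3 with 174 and 132, and Hapln1 with 71 and 73. A Col9a3 UMI was found in 50.4% of members in A1 and 38.7% in B1, against 6.55% and 5.30% of remaining spots, and all 4 genes were seen together in 23 and 19 members. Ranking by the other 3 genes alone kept 69 of 125 members in A1 and 53 of 124 in B1, so that membership leaned on Col2a1. Transcripts of Col2a1 were also spread widely. A Col2a1 UMI occurred in 67.8% of remaining spots in A1 and 53.2% in B1 (median depths 511 and 527 UMIs), and in 72.5% and 37.8% of the spots richest in keratinocyte markers, which should lack the gene (median depths 773.5 and 942 UMIs). In the spots richest in skeletal muscle markers it was 82.5% and 76.5% (median depths 546 and 360 UMIs). A lone Col2a1 UMI in a spot was therefore not read as cartilage.

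**Figure D1:**
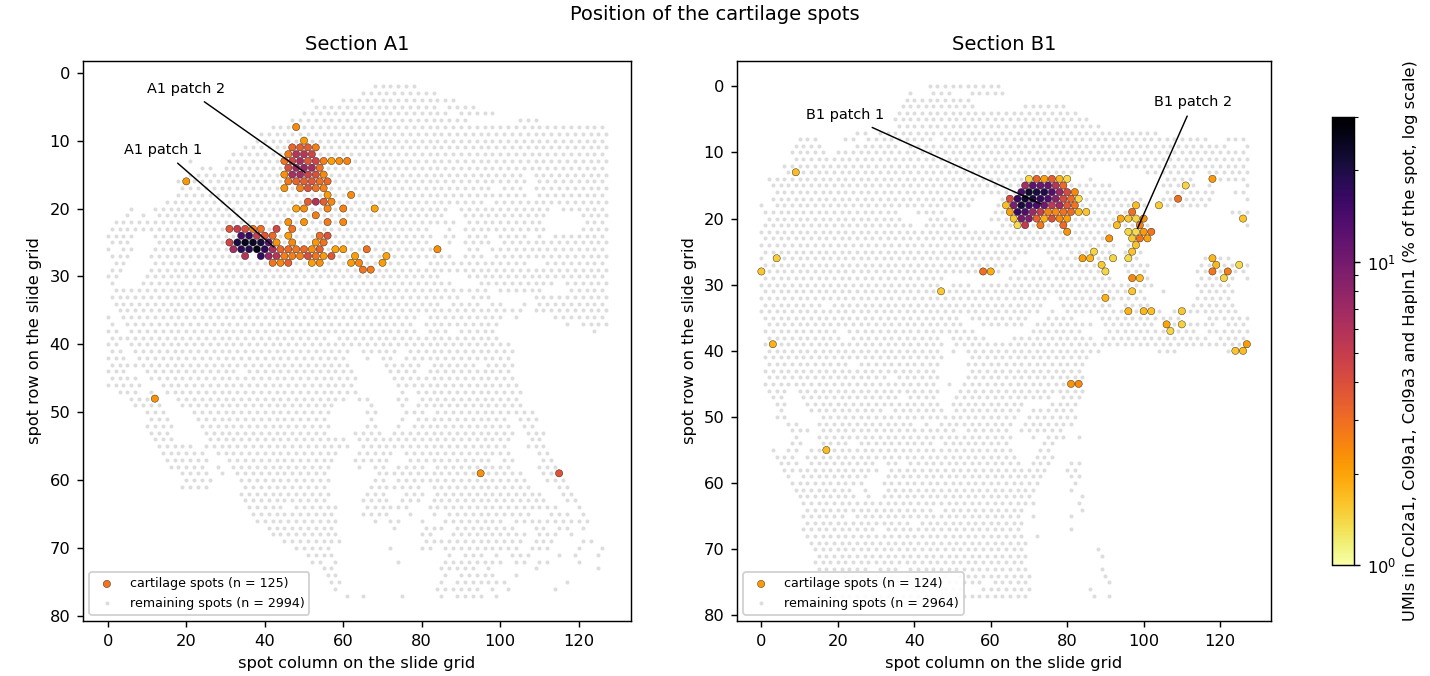
Position of the spots with at least 200 UMIs on the slide grid of sections A1 (left) and B1 (right), with the spot column and row on the axes. Cartilage spots are coloured by the percentage of their UMIs in Col2a1, Col9a1, Col9a3 and Hapln1 on a log scale and remaining spots are grey. The shares above 10% lie in A1 patch 1 and B1 patch 1.

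The sections held 2259744 UMIs in A1 and 2308754 in B1, with medians of 454 and 516 per spot over tissue. The cartilage sums held 100686 and 91118 UMIs and the remaining sums 2093100 and 2200917. Median depth per spot was 742 and 573 UMIs in cartilage spots, against 511 and 527 in remaining spots. With the 4 choosing genes left out, 3 UMIs, the limit given to a count of 0, correspond to 31.6 CPM (UMIs per 1000000 UMIs) in the cartilage sum of A1 and 35.0 in that of B1. The 2 sections share 2528 spot barcodes, all at the same grid position, of which 2 were members in both sections, and none of the shared spots had the same UMI total. A further 11 cartilage markers that did not choose the spots, among them Acan, Comp and Sox9, made up 1.28% and 1.18% of UMIs in cartilage spots, against 0.257% and 0.198% in remaining spots. Every one of them was detected in both cartilage sums and also in both remaining sums. The 6 tendon markers made up 0.0853% and 0.0689% in cartilage spots, against 0.0779% and 0.0718% in remaining spots. Tnmd and Kera, which mark tenocytes, had no UMI in the cartilage spots, while the other 4 tendon markers were detected in both cartilage sums. Tnmd and Kera were also at 0 in the A1 spots richest in bone markers and in those richest in wound mesenchyme markers.

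To determine which other transcripts accompany the choosing genes, counts were summed per section and spot group, and edgeR's quasi-likelihood test was fitted with section as a block after removing the 4 genes. Of 13670 genes tested, 45 were higher in cartilage spots (0.329%) and 33 were lower (0.241%), in all 0.571%. DESeq2 on the same sums called 27 higher and 7 lower. The highest fold changes belonged to matrix genes of cartilage, and the genes that were lower included keratins, myeloid genes and Fabp4. With only 2 sections the fit had 1 residual degree of freedom and shared its spread across all genes. Over all 13670 genes tested the fold changes had a median of -0.25 (log2). It was -0.01 when the remaining spots were matched to the members in UMIs, where only 2042 genes were tested. Without the filter on low counts it was -0.47 over 19251 genes. These medians cover unlike sets of genes.

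Of 8 other collagen genes listed for cartilage, 3 were higher in cartilage spots, none was lower and 5 did not pass, with a median log2 fold change of 0.91. Col9a2, which encodes the α2 chain of type IX collagen, had 495 and 502 CPM in the cartilage spots of A1 and B1, against 50.8 and 39.2 CPM in remaining spots (log2 fold change 3.38 ± 0.29 SE, adjusted p = 4.0e-28). Col11a2, a chain of the type XI collagen at the core of cartilage fibrils, reached 2390 and 2008 CPM against 369 and 272 CPM (2.70 ± 0.25). Col27a1, a fibrillar collagen of cartilage, had 895 and 981 CPM against 277 and 231 CPM (1.80 ± 0.24). In all 3 genes both cartilage sums lay above both remaining sums. Col11a1 was at 158 and 140 CPM against 53.2 and 70.1 CPM and did not pass (adjusted p = 0.24). Col10a1, the collagen of hypertrophic chondrocytes, had 1 UMI in the cartilage spots of A1 and none in those of B1. The type I collagen genes, which mark bone, tendon and skin, did not pass, with Col1a1 at 3853 and 3561 CPM in cartilage spots against 2564 and 3100 CPM (log2 fold change 0.31 ± 0.26).

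Of 35 listed matrix proteins and proteoglycans 32 were tested, and 12 were higher and none lower in cartilage spots, with a median log2 fold change of 0.80. Matn3, a matrilin that links collagen fibrils to aggrecan, had 58 and 64 UMIs in the cartilage spots, which is 611 and 747 CPM against 35.5 and 39.2 CPM in remaining spots (log2 fold change 4.09 ± 0.27, adjusted p = 3.4e-46). Matn1, another matrilin, rested on 17 and 5 UMIs, at 179 and 58.4 CPM against 4.79 and 1.82 CPM, and over both sections its rate was 37.3 times higher with a counting interval of 18.2 to 78.7. Snorc, a transmembrane proteoglycan of chondrocytes, had 305 and 292 CPM against 21.1 and 13.2 CPM (4.04 ± 0.40). In these 3 genes both cartilage sums lay above both remaining sums, and the 2 cartilage sums were closest for Snorc.

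Comp had the most UMIs of this list and encodes a pentameric protein that binds collagens and is made in cartilage and tendon. It had 710 and 565 UMIs in the cartilage spots, or 7474 and 6596 CPM against 1719 and 1193 CPM in remaining spots (2.21 ± 0.28, adjusted p = 5.5e-12). Acan, which encodes aggrecan, had 895 and 899 CPM against 222 and 227 CPM (1.91 ± 0.24). Cnmd, which encodes the angiogenesis inhibitor chondromodulin, had 84.2 and 198 CPM against 11.5 and 18.2 CPM (3.12 ± 0.58, 8 and 17 UMIs in cartilage spots). Susd5 (2.73 ± 0.30), Scrg1 (2.91 ± 0.72) and the cartilage lectin Clec3a (2.82 ± 0.69) were also higher, as were Matn4, Prelp and Mgp with log2 fold changes of 1.69, 1.64 and 1.26. Scrg1 had only 7 and 9 UMIs in cartilage spots and its call was lost in 2 of 10 alternatives. Prg4, the lubricin gene of the joint surface, had 0 and 1 UMI in cartilage spots, and Cilp had 0 and 1.

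Promoter windows of 2 genes are shown because Matn3 had the smallest adjusted p and Col11a2 had the most UMIs of the collagen genes that were higher. Of 13 cartilage genes looked up in the RefSeq promoter table (build GRCm38.p6, 250 bases before to 50 after the start), 9 matched, and Col2a1, Col9a3, Snorc and Comp did not. Capitals mark matches on either strand to the core letters ACAAT of SOX factors, ACGTG of HIF and the TATA box TATAAA, none of which overlap here. The Matn3 window lies at chr12:8947679-8947978 and the Col11a2 window at chr17:34038888-34039187, both on the plus strand.
Matn3: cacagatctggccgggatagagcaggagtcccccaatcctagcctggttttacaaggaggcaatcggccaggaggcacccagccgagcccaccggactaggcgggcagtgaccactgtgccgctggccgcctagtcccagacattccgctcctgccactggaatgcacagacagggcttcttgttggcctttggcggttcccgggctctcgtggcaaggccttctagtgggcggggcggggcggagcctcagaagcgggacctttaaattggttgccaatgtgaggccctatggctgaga
Col11a2: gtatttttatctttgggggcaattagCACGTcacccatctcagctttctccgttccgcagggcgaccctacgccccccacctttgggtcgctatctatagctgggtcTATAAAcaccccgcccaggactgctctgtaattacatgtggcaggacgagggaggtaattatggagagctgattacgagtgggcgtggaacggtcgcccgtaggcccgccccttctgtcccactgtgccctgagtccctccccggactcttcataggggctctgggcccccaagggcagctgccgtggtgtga
The Matn3 window held none of the 3 strings, nor did the windows of Matn1, Col9a2 and Acan, which were searched too and are not shown. The Col11a2 window held 1 ACGTG string, read on the opposite strand, and 1 TATAAA. Over all 32851 windows of this length, 31.0% held ACAAT, 19.6% ACGTG and 13.6% TATAAA, so that these matches are a description of the letters only.

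Of 21 chondrocyte transcription factors tested, 3 were higher and none lower. Sox9, the master regulator of chondrocytes, had 189 and 292 CPM in cartilage spots against 68.5 and 88.8 CPM (log2 fold change 1.52 ± 0.33, adjusted p = 0.0015). Runx3, which acts with Runx2 in chondrocyte maturation, had 263 and 222 CPM against 78.6 and 87.9 CPM (1.46 ± 0.32). Creb3l2, which controls secretory genes in chondrocytes, had 400 and 735 CPM against 256 and 270 CPM (0.98 ± 0.25), and its call was lost in 8 of 11 alternatives. DESeq2 did not call Sox9 or Runx3. Sox5 and Sox6, the partners of SOX9, had 3 and 14 UMIs in all and did not pass.

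Among 25 listed growth plate signals and receptors, 21 were tested, 4 were higher and none was lower. The parathyroid hormone receptor Pth1r had 484 and 269 CPM in cartilage spots against 82.9 and 54.2 CPM (2.35 ± 0.30, adjusted p = 5.0e-12). The hedgehog receptor Ptch1, itself induced by hedgehog signalling, had 179 and 152 CPM against 39.8 and 27.3 CPM (2.21 ± 0.44). The secreted Wnt antagonist Frzb had 168 and 222 CPM against 35.5 and 28.7 CPM (2.51 ± 0.42). Fgfr3, a receptor that restrains growth plate chondrocytes, had 263 and 269 CPM against 65.2 and 56.9 CPM (2.03 ± 0.33). The call of Ptch1 was lost against UMI-matched spots (adjusted p = 0.071, range over the alternatives 1.3e-04 to 0.071). The ligand Ihh was uneven, with 10 UMIs in the cartilage spots of A1 and 1 in those of B1, and did not pass (2.92 ± 0.99, adjusted p = 0.27).

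Of 21 listed genes of hypertrophy and mineralization, 4 were higher, 1 was lower and 16 did not pass, the fourth higher gene being Mgp. Alpl, which encodes the phosphatase that frees phosphate for mineral, had 579 and 339 CPM in cartilage spots against 117 and 85.1 CPM (2.08 ± 0.27, adjusted p = 2.8e-11). Phospho1, a phosphatase of matrix vesicles, had 1484 and 817 CPM against 460 and 334 CPM (1.41 ± 0.24). Wwp2, the ubiquitin ligase whose gene hosts the chondrocyte microRNA miR-140, had 905 and 1319 CPM against 257 and 302 CPM (1.89 ± 0.24). Spp1, the osteopontin gene of bone and macrophages, was lower, at 116 and 292 CPM against 170 and 1092 CPM (-1.51 ± 0.31), although the cartilage sum of B1 lay above the remaining sum of A1, and DESeq2 did not call it. On the bone list, Alpl and Dmp1 were higher and Spp1 lower among 16 genes tested. Dmp1, an osteocyte gene, had 389 and 222 CPM against 122 and 140 CPM (1.14 ± 0.29), and its call was lost in 8 of 11 alternatives. A1 patch 1, the largest patch of touching members in A1, held 31 of its UMIs. In the 42 members of each section with the highest share of the choosing genes Dmp1 was at 134 and 80.4 CPM, against 534 and 410 CPM in the 41 with the lowest. Bone markers as a class made up 0.0947% and 0.0444% of UMIs in cartilage spots against 0.0349% and 0.0353% in remaining spots, with Mepe at 0 in the cartilage spots. The part of bone cells in the higher Alpl, Phospho1 and Dmp1 was not tested.

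The study followed HIF-1α and the enzymes that modify and cross-link collagen. Of 28 such enzymes and chaperones none passed in either direction by edgeR. Over all genes tested 0.571% passed, so that a count of 0 in so short a list says little. At an unadjusted p under 0.05, 1 of the 28 was higher and 3 were lower, beside 249 and 534 of all 13670 genes. The median log2 fold change of the list was 0.15, beside -0.25 for all genes tested. The latter value moved with depth matching and the filter, as given above, and is no fixed baseline. Summed over the list, levels were 8884 and 8102 CPM in cartilage spots of A1 and B1, against 6095 and 6197 CPM in remaining spots. Lox, a lysyl oxidase, had 1958 and 1599 CPM in cartilage spots against 1202 and 1288 CPM in remaining spots (log2 fold change 0.42 ± 0.25, adjusted p = 0.93). Plod2, a lysyl hydroxylase, had 10 and 8 UMIs and a log2 fold change of 0.14 ± 0.42. Loxl1 had 189 and 233 CPM against 381 and 312 CPM (-0.80 ± 0.29, adjusted p = 0.40), with both cartilage sums below both remaining sums. Loxl2 and Loxl3 had log2 fold changes of 0.22 ± 0.42 and 0.41 ± 0.26. Hif1a itself had 5 and 4 UMIs in the cartilage spots (-0.83 ± 0.51), too few to show a moderate difference at this depth. Vegfa (0.26 ± 0.28) and the glucose transporter Slc2a1 (-0.28 ± 0.25), both HIF-1 targets, did not pass either.

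Of 30 tested HIF-1 pathway genes outside glycolysis, 1 was lower and none higher, and of 20 glycolysis genes 1 was lower and none higher. Over all genes tested 0.241% were lower and 0.329% higher, so that such counts in short lists say little. Egln3, a prolyl hydroxylase that marks HIF-1α for breakdown, had 73.7 and 58.4 CPM in cartilage spots against 211 and 173 CPM (-1.63 ± 0.40, adjusted p = 0.013), and this call was lost in 5 of 11 alternatives. Slc2a3, a glucose transporter of myeloid cells among others, had 1 and 4 UMIs, at 10.5 and 46.7 CPM against 55.1 and 247 CPM (-2.46 ± 0.55), and was lost in 4 of 10. Both cartilage sums of each gene lay below both remaining sums. The list medians of 0.00 for the HIF-1 pathway and -0.23 for glycolysis stood beside -0.25 for all genes, a value that moved with depth matching and the filter, as given above. Summed over all listed glycolysis genes with a probe, levels were 5232 and 5732 CPM in cartilage spots against 4387 and 5717 CPM. For the HIF-1 list they were 2621 and 2347 CPM against 2409 and 2387 CPM.

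Several genes of epidermis, myeloid cells and fat were lower in cartilage spots. Of 10 keratinocyte genes 4 were lower, including Krt5 at 126 and 257 CPM against 393 and 661 CPM (-1.56 ± 0.30) and Krt14 at 3453 and 5685 CPM against 7667 and 10540 CPM (-1.11 ± 0.30). Krt10 (-1.49 ± 0.33) and Krt1 (-0.99) were also lower. The call was lost in 3 of 11 alternatives for Krt14 and in 4 for Krt10. Of 15 myeloid genes 2 were lower, S100a9 of neutrophils (52.6 and 397 CPM against 269 and 1134 CPM, -1.80 ± 0.31) and the cytokine Il1b (126 and 210 CPM against 293 and 842 CPM, -1.75 ± 0.31). Fabp4, a fatty acid carrier of adipocytes and capillaries, had 358 and 385 CPM against 1302 and 668 CPM (-1.44 ± 0.27). The lowest fold changes were those of Srgn (-2.48 ± 0.41), Slc2a3, Ninj1 (-2.31 ± 0.61), Ly6d (-2.11 ± 0.43) and Acod1 (-2.07 ± 0.52), each with at most 7 UMIs in a cartilage sum and Ninj1 with none in A1. The difference in Srgn lay mostly in B1, where the log2 ratio was -3.68 (35.0 CPM against 523), while it was -0.79 in A1 (73.7 CPM against 136), and DESeq2 did not call it. The calls of Ninj1 and Acod1 were lost in 6 of 10 and 5 of 11 alternatives. Tnnc2 and Krt2 were called lower although they were higher in the cartilage spots of B1. The keratinocyte marker class made up 0.506% and 0.663% of UMIs in cartilage spots against 1.07% and 1.26% in remaining spots, all 5 markers being present in both cartilage sums. None of the 11 listed skeletal muscle genes tested passed by edgeR, with 4 lower at an unadjusted p under 0.05, but the list does not hold the muscle gene Tnnc2, which was called lower. The neutrophil class made up 0.0200% and 0.0514% against 0.0432% and 0.157%, with Camp, Ltf and Ngp at 0 in the cartilage spots. Skeletal muscle markers were lower in cartilage spots of A1 (0.129% against 0.416%) and higher in those of B1 (0.232% against 0.124%). Fewer cells of a type and less RNA per cell cannot be told apart in summed spots, and the part of these tissues in the lower genes was not tested.

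**Figure D2:**
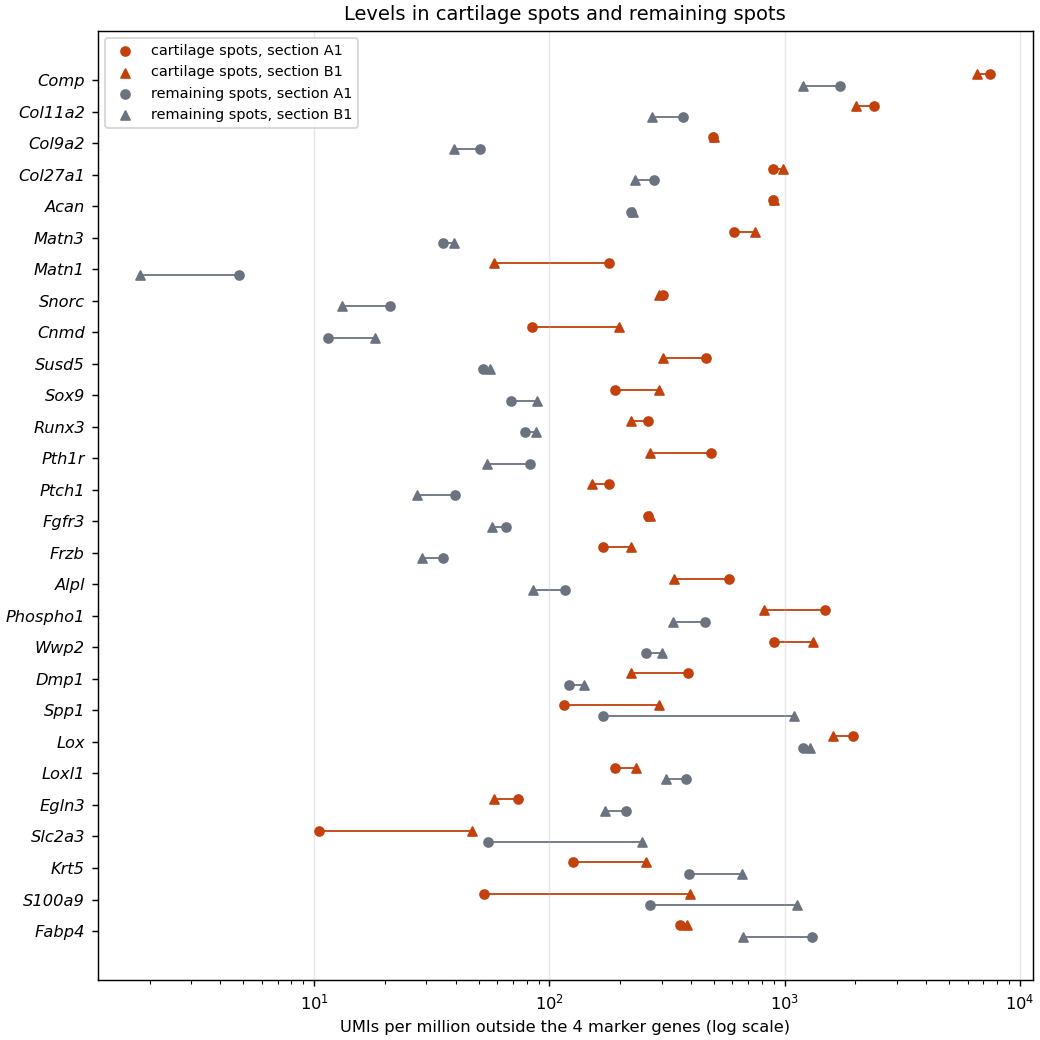
Levels in cartilage spots (orange) and remaining spots (grey) of sections A1 (circles) and B1 (triangles), as CPM on a log axis after leaving out the 4 choosing genes, for genes described in the text. From Comp to Wwp2 both cartilage sums lie above both remaining sums, with Comp at 7474 and 6596 against 1719 and 1193.

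Genes outside the groups above were also higher in cartilage spots. Cspg4, which encodes the proteoglycan NG2 of pericytes, had 589 and 700 CPM in cartilage spots against 166 and 139 CPM (1.99 ± 0.25). The remaining endothelial and pericyte genes tested, 10 in number, did not pass. Chst11, a chondroitin sulfotransferase, was the only gene of 26 for glycosaminoglycan synthesis and sulfation that passed, at 116 and 350 CPM against 78.1 and 74.7 CPM (1.46 ± 0.34), with most of the difference in B1 (log2 ratio 2.25, against 0.63 in A1). DESeq2 and the UMI-matched spots did not call it. Ppp1r1b, a phosphatase inhibitor, had 126 and 117 CPM against 19.6 and 15.5 CPM (2.70 ± 0.59), and was not called against UMI-matched spots (adjusted p = 0.18, range over the alternatives 1.2e-04 to 0.18). Rbp4, Trpv4, a calcium channel of chondrocytes, and Itga10, a collagen-binding integrin of chondrocytes, had log2 fold changes of 2.26, 1.67 and 1.66. These last 3 genes, as well as Acan, Fgfr3, Phospho1, Prelp, Matn4, Mgp, Krt1, Krt2, Tnnc2 and the genes given above as not passing outside those the study followed, were picked for mention after their values were seen.

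The members lay together in the tissue. Of the neighbours of a cartilage spot, 58.0% in A1 and 56.7% in B1 were cartilage spots too, and 111 of 125 and 105 of 124 members touched another one. Touching members formed 4 patches of at least 10 spots, of 56 and 48 spots in A1 and 64 and 18 spots in B1, which held 104 of 125 and 82 of 124 members. These patches were defined after the map was seen, and what follows is a description with exact 95% Poisson intervals for counting error. The share of the choosing genes was 8.39% in A1 patch 1, 3.77% in A1 patch 2, 7.98% in B1 patch 1 and 1.93% in B1 patch 2. The highest share of a spot in B1 patch 2 was 2.97%. Whether a patch was cartilage at all, and whether of a joint, a growth plate or ectopic, was not tested.

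The 2 patches of A1 differed in several genes of cartilage maturation and bone. Ihh had 10 UMIs in A1 patch 1 (252 CPM, 121 to 463), none in A1 patch 2 and 1 in B1 patch 1. Phospho1 was at 2745 CPM in A1 patch 1 (2254 to 3312), against 595 in A1 patch 2 and 549 in B1 patch 1. Dmp1 was at 781 CPM in A1 patch 1 (531 to 1108), against 63.8 in A1 patch 2 and 124 in B1 patch 1. Matn1 was also highest in A1 patch 1, with 16 UMIs there, 1 in A1 patch 2 and 5 in B1 patch 1. The interval of A1 patch 1 did not overlap those of the other 2 large patches for Ihh, Phospho1, Dmp1 and Matn1. How many other genes separate the patches in this way was not counted. The intervals here and in the next paragraph therefore describe only the genes named. They do not show that these patches differ more than any other patches would.

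Sox9, Matn3 and Lox had their lowest level among the 3 large patches in A1 patch 1. Sox9 had 3 UMIs there (75.6 CPM, 15.6 to 221), against 14 in A1 patch 2 (298 CPM) and 21 in B1 patch 1 (372 CPM, 230 to 568), and its interval overlapped only that of A1 patch 2 among these. Matn3 had 504 CPM in A1 patch 1, against 786 in A1 patch 2 and 1098 in B1 patch 1, and none of its UMIs fell in B1 patch 2. Lox was at 1335 CPM in A1 patch 1 (1000 to 1746) and 2678 in A1 patch 2 (2231 to 3189), intervals that do not overlap. Another lysyl oxidase gene, Loxl2, had no UMI in A1 patch 1 and 11 in A1 patch 2. The order of the patches thus differed between genes. The collagenase gene Mmp13 had 6 UMIs in A1 patch 1, 14 in A1 patch 2 and 1 in B1 patch 1. Snorc was lower in A1 patch 2 (6 UMIs) than in A1 patch 1 and B1 patch 1 (21 and 23 UMIs). The smallest patch held 10190 UMIs outside the choosing genes, so that counts of 0 there allow up to about 362 CPM by the upper 95% limit.

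**Figure D3:**
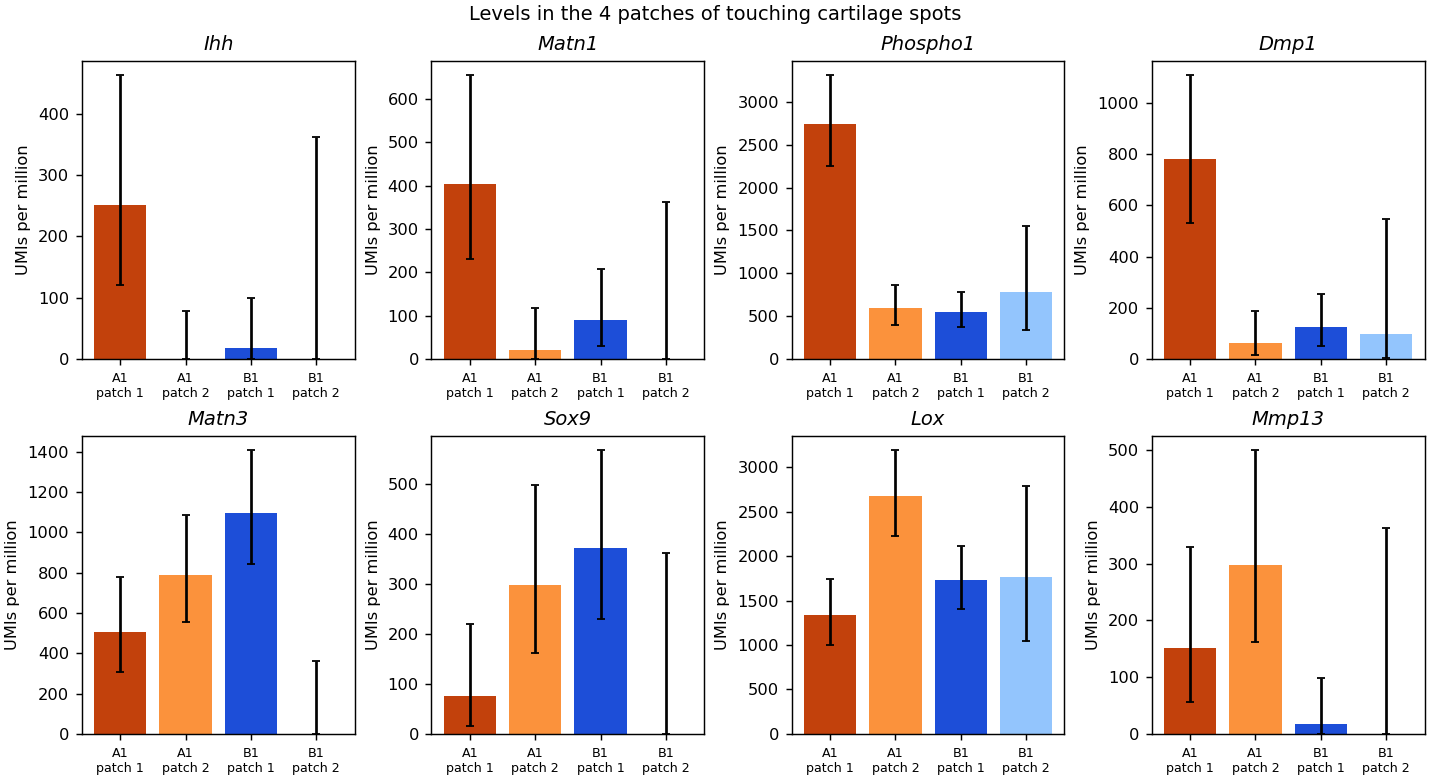
CPM outside the 4 choosing genes in the 4 patches of touching cartilage spots, for 8 genes. Bars are summed counts and error bars exact 95% Poisson intervals. Ihh, Matn1, Phospho1 and Dmp1 are highest in A1 patch 1, whereas Lox is higher in A1 patch 2 than in A1 patch 1 and the Sox9 intervals of these patches overlap.

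Levels also varied with the share of the choosing genes. In the 42 members of each section with the highest share, Comp was at 12157 CPM in A1 and 10586 in B1, against 3366 and 3322 in the 41 with the lowest share. Col11a2 was at 4079 and 3484 CPM against 903 and 656 CPM, and Col9a2 at 859 and 965 CPM against 164 and 123 CPM. Col1a1 differed less, at 3784 and 3323 CPM in the 42 highest against 3407 and 3732 CPM in the 41 lowest. Dmp1, as given above, ran the other way in both sections, on 5 and 3 UMIs in the 42 highest. Genes of this paragraph were picked after their values were seen and carry no test.

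Outside the members, levels of Matn3 and Comp were lower, at different rates with distance. With 0 steps denoting the members and 1 step the spots that touch them, Matn3 was at 611, 108 and 30.3 CPM at 0, 1 and 2 steps in A1 and at 747, 131 and 144 CPM in B1. Comp was at 7474 CPM at 0 steps, 3219 at 1 step, 2670 at 3 steps and 1192 beyond 10 steps in A1. In B1 it was at 6596, 2476, 1929 and 533 CPM. The share of the choosing genes was 5.65, 1.02 and 0.571% at 0, 1 and 2 steps in A1 and 5.99, 0.663 and 0.490% in B1, and was 0.233 and 0.103% beyond 10 steps. Its drop from 0 to 1 step is fixed by the choice of the spots and is given as a description. Bglap, the osteocalcin gene of osteoblasts, was level from 0 to 3 steps in A1 (516, 493, 535 and 546 CPM) and was at 116 CPM beyond 10 steps. In B1 Bglap was at 198 CPM in the members and 427 CPM at 1 step. Krt14 was higher farther away, at 7835 CPM in A1 and 12976 CPM in B1 beyond 10 steps. In the deposited scores of spatial autocorrelation (Moran's I), Col2a1 ranked 1 of 19132 genes in A1 (0.448) and 2 of 19222 in B1 (0.511). Comp, which did not choose the spots, ranked 13 and 20, the best of the other cartilage markers. Acan ranked 155 and 238, whereas Sox9 ranked 1923 and 1592, Col11a1 6333 and 2402, and Chad 1806 and 7565.

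**Figure D4:**
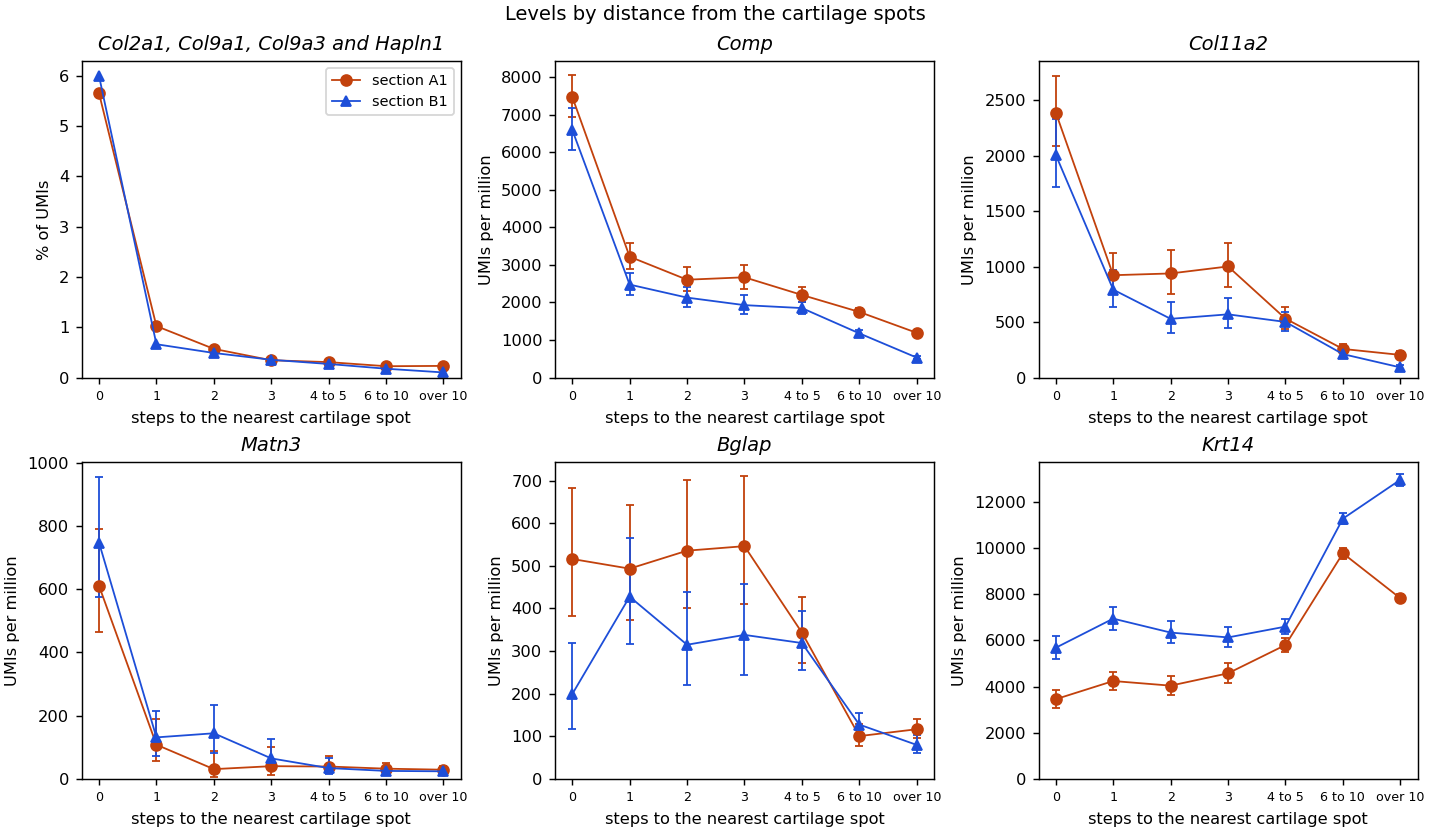
Levels against the number of grid steps to the nearest cartilage spot (0 for the cartilage spots themselves) in sections A1 (circles) and B1 (triangles). The first panel gives the percentage of UMIs in the 4 choosing genes and the others CPM with exact 95% Poisson intervals. Matn3 drops within 1 step, Comp and Col11a2 decline over many steps, and Bglap does not peak at the cartilage spots.

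To place the cartilage spots beside other connective tissues, they were set against spots chosen in the same way by bone, tendon or wound mesenchyme markers, after leaving out all choosing genes. Each of these kinds held 100 to 112 spots per section. Their median depths in A1 and B1 were 393.5 and 375 UMIs (bone), 412.5 and 359 (tendon) and 366 and 402 (wound). The cartilage spots were deeper, at 742 and 573 UMIs, and no depth-matched setting was run for these comparisons. The 4 kinds were fitted together, 1479 genes passed the filter on low counts, and the fit had 3 residual degrees of freedom. The cartilage spots entered all 3 comparisons, which are therefore not independent of each other.

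Against bone-marker spots, 15 genes were higher in cartilage spots (1.01%) and 13 lower (0.879%), in all 1.89% of the genes. Col9a2 had 47 and 43 UMIs in cartilage spots against 2 and 1 in bone-marker spots, a rate 18.7 times higher with a counting interval of 6.21 to 92.6. Matn3 (2.90 ± 0.44, adjusted p = 2.8e-08), Col27a1 (2.15 ± 0.35), Rbp4 (1.93 ± 0.42) and Comp (1.72 ± 0.17) were also higher. Snorc, with 54 UMIs in cartilage spots against 4, was called by edgeR but not by DESeq2, and in only 1 of the 3 alternatives. Rbp4 was not called by DESeq2 either, but was called in 2 of the 3. Lower genes included Mmp13, the collagenase of hypertrophic cartilage and bone, with 20 and 4 UMIs against 23 and 23 (-1.83 ± 0.44), Phospho1 at 141 and 70 UMIs against 156 and 139 (-1.40 ± 0.23) and Col1a2 (-1.02 ± 0.07). Phospho1 was thus higher in cartilage spots than in the remaining spots and lower than in bone-marker spots. Col22a1, a collagen of tissue junctions, was also lower, with 8 and 1 UMIs against 22 and 11 (-2.78 ± 0.80). Cyp2f2, Xpo6 and Car3 completed the 5 lowest, at -1.67, -1.70 and -1.45. DESeq2 called none of these 5 lowest genes. Col22a1, Xpo6 and Cyp2f2 were called in none of the 3 alternatives, and Mmp13 and Car3 in 1 each. The difference in Cyp2f2 lay mostly in A1 (log2 ratio -2.06, and -0.28 in B1).

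Against tendon-marker spots, 18 genes were higher in cartilage spots (1.22%) and 9 lower (0.609%), in all 1.83% of the genes. Matn3 had 122 UMIs in cartilage spots against 1 in tendon-marker spots, a rate 80.7 times higher with a counting interval of 14.2 to 3213, and Snorc had 54 against 1. Alpl, with 55 and 29 UMIs against 4 and 1, was higher (3.35 ± 0.53, adjusted p = 6.4e-08), as were Col9a2 (3.46 ± 0.54) and the corepressor Rcor2 (3.41 ± 0.65). DESeq2 did not call Snorc or Rcor2. Comp, made in both tissues, was higher in cartilage spots by 1.54 ± 0.17 on the log2 scale. Tnnc2, a muscle troponin (-1.77 ± 0.37), Srgn (-2.11 ± 0.63), Dhrs3 (-1.76 ± 0.48), Mxra8 (-1.64 ± 0.41) and Krt5 (-1.27 ± 0.38) were lower, none of them called by DESeq2. Srgn and Krt5 were called in none of the 3 alternatives, Dhrs3 and Mxra8 in 1 each. The difference in Tnnc2 lay mostly in A1 (log2 ratio -3.24, and -0.48 in B1). Skeletal muscle markers made up 0.129% and 0.232% of UMIs in cartilage spots against 0.376% and 0.168% in tendon-marker spots, and their part in the lower Tnnc2 was not tested.

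Against wound-marker spots, 23 genes were higher in cartilage spots (1.56%) and 13 lower (0.879%), in all 2.43% of the genes. Col11a2 had 227 and 172 UMIs against 13 and 13 (2.95 ± 0.30, adjusted p = 8.2e-20), and Acan 85 and 77 UMIs against 7 and 5 (2.77 ± 0.40). Matn3 (3.12 ± 0.47), Susd5 (3.08 ± 0.60) and Snorc (3.11 ± 0.88) were higher as well, Susd5 and Snorc resting on 4 and 3 UMIs in the wound-marker spots, and DESeq2 called neither. Snorc was called in only 1 of the 3 alternatives. Apoe, a lipid carrier of macrophages, had 72 and 32 UMIs against 72 and 88 (-1.66 ± 0.27), and Fabp4 had 34 and 33 against 62 and 46 (-1.65 ± 0.30). Cyp2f2 (-2.05 ± 0.48), Tnnc2 (-1.85 ± 0.38) and S100a9 (-1.47 ± 0.37) were lower too, but not by DESeq2. S100a9 was called in none of the 3 alternatives and Cyp2f2 in 1. The difference in Tnnc2 lay mostly in A1 (log2 ratio -3.43, and -0.30 in B1). Of the cross-linking genes, Loxl1 was lower, at 190 and 234 CPM in cartilage spots against 506 and 452 CPM in wound-marker spots (-1.27 ± 0.38, adjusted p = 0.033), and Serpinh1, the collagen chaperone HSP47, was higher (0.71 ± 0.19). DESeq2 and the fit without the section block called neither, and without the filter on low counts Loxl1 was not called either. Lox did not pass (0.50 ± 0.23, adjusted p = 0.29).

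**Figure D5:**
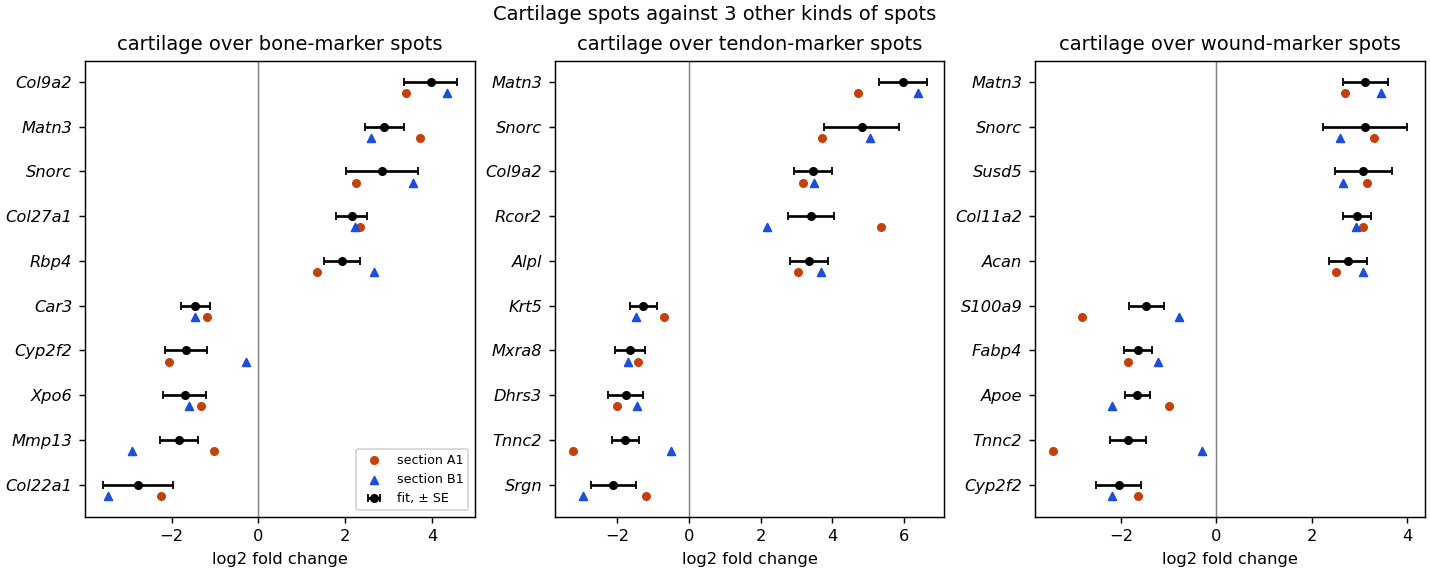
Log2 fold changes of cartilage spots over bone-marker, tendon-marker and wound-marker spots for the 5 highest and 5 lowest genes of each comparison. Black points are the edgeR fit with its standard error, and circles and triangles are the ratios within sections A1 and B1. Matn3 and Snorc lie on the positive side in all 3 panels and in both sections.

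Over all 6207 spots, among 2517 genes with a UMI in at least 5% of spots, those whose share most resembled that of the choosing genes were Comp (Spearman 0.24), Col11a2 (0.18), Tnnt3 (0.17), Alpl (0.14), Col1a2 (0.14), Ckm (0.13), Phospho1 (0.13), Rbp4 (0.11), Tnnc2 (0.10) and Bglap (0.10). These are weak correlations in sparse counts that share the depth of each spot, and are given as a description. Muscle genes (Tnnt3, Ckm and Tnnc2) are 3 of the 10. Below these, the keratin genes Krt14, Krt16 and Krt2 ranked 12, 17 and 18 (0.098, 0.087 and 0.086). Krt14 and Krt2 were nevertheless called lower in cartilage spots.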

How the data were processed

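The authors ran Space Ranger 2.0.1 on the mm10 probe set (19465 genes) and deposited unnormalized counts, 1 whole number of UMIs for each gene in each spot. They also deposited a score per gene, Moran's I of spatial autocorrelation over the spots under tissue, as the Space Ranger output gives it. Probe-based counts measure only the probed part of a transcript, and compare a gene between groups rather than genes with each other. The authors' outlines of tissue regions were not used here.

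Counts were summed per section over cartilage, remaining and other marker spots, and tested with edgeR 4.0.16 (R 4.3.3, TMM, filterByExpr, quasi-likelihood, Benjamini-Hochberg, threshold 0.05) with section as a block. The block rests on both groups lying in the same section. Genes that chose spots were left out of counts, totals and tests. Bone-marker, tendon-marker and wound-marker spots were the top 4% by the markers of each kind among spots that were not cartilage, less spots taken by more than 1 kind. CPM are relative to the remaining UMIs of each sum, and ± gives the standard error of a log2 fold change. Alternatives were DESeq2 1.42.0, no block, no filter, other limits on spots and UMIs, a ranking without Col2a1, and remaining spots matched in UMIs or not touching cartilage spots. Poisson intervals cover counting error only. The scripts were tested on simulated data.

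Named genes were those the study follows, up to 3 per gene list and the 10 highest and 5 lowest of the main comparison, and the 5 highest and 5 lowest of each other comparison, with the same direction in both sections. The members and lists were chosen with earlier results of these data known.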

Additional observations from a re-analysis of the deposited data

Results flagged for a closer look

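Transcripts of the 4 choosing genes were also found outside the Visium sections, in the single-cell libraries labelled Hoxa11CreER;ROSA-LSL-TdTomato;Hif1a fl/fl, which entered no comparison above and have no control library here. In the library of replicates 1-2 (2303 barcodes), Col2a1 had 3660 UMIs, Col9a1 555, Col9a3 2445 and Hapln1 533. The Col2a1 UMIs lay in 116 barcodes, 473 of them in a single one. In the library of replicate 3 (1266 barcodes), Col2a1 had 487 UMIs, Col9a1 91, Col9a3 210 and Hapln1 238. These values were taken up because each is above what a count of 0 allows (3 UMIs in a library).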

How the results depend on the processing

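Against remaining spots, edgeR called 45 genes higher and 33 lower. DESeq2 called 27 and 7, all of them among these, and the fit with no replicate block 33 and 14. Without a filter on low counts the calls were 36 and 12 among 19251 genes. The number lower was 64 with the top 2% of spots, 58 with at least 500 UMIs and 62 with only the members in patches, the last chosen after seeing the data. With remaining spots matched in UMIs, where 2042 genes were tested, it was 58, with 24 of the 33 among them. The other settings stayed within 1.5 times. Against bone-marker spots, the 15 higher and 13 lower became 5 and 2 with DESeq2, 10 and 5 with no replicate block, and 28 and 2 without a filter. Against tendon-marker spots, the 18 and 9 became 7 and 0 with DESeq2 (13 lower at an unadjusted p under 0.05), 16 and 3 with no replicate block, and 17 and 1 without a filter. Against wound-marker spots, the 23 and 13 became 6 and 2 with DESeq2, 15 and 5 with no replicate block, and 34 and 3 without a filter. Of the named genes against remaining spots, 15 of 23 higher and 3 of 13 lower (S100a9, Il1b and Fabp4) were called in every alternative run. Plod2, not called, turned to -0.065 with at least 500 UMIs and to -0.0019 when ranked without Col2a1. The cause of these changes was not tested. With 1 section left out no test remained, and the ratio of the other section against remaining spots was set beside the fitted value. The gap exceeded the standard deviation of both section ratios in 18 of 44 named genes without replicate 1 and in 16 of 44 without replicate 2. That standard deviation comes from the same ratios, which lack the TMM scaling of the fit, so that these counts do not measure stability. Low counts in the cartilage sums limit the precision.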
